A study of Mus musculus with 24 samples.

Results

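Dusp4, Dusp6, Spry1, Spry2, Spry4, Spred1, Etv1, Etv4, Etv5 and Ier3 are 10 genes whose transcription rises when the ERK branch of MAP kinase signalling is active, and they are often read as its output. They were taken by name, each through the probe sets that carry its symbol alone, and a gene with several such probe sets was read from the one with the highest mean. All 10 were measured among 17097 genes with a probe set of their own, and all 10 were among the 13218 genes tested after a filter on low signal. The RNA of 24 mouse tumours of the cerebral cortex was read, each on an array of its own. According to the series' design text, each tumour grew from cells that expressed RAB3A, BC74C or ZNF668, called the class gene in the labels. RAB3A marks 6 tumours, while BC74C and ZNF668 mark 9 each. BC74C is not an approved gene symbol and is used here as the label gives it. Each tumour also carries a label of its kind: 11 are labelled ependymoma, 4 HGG (an abbreviation that the labels do not spell out), 5 TUMOR with no type and 4 UNKNOWN. No group without a class gene is among the samples. The strain, the age of the animals and the way the class gene was introduced are not given in the sources used here. Levels are the deposited log2 values, so a difference of 1 is a doubling, and replicate numbers follow the order of deposit within a class gene.

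As background, growth factors such as EGF and FGF bind receptor tyrosine kinases, and these act through Ras, Raf and Mek on the kinase ERK. ERK switches on genes that dampen the pathway in turn: dual-specificity phosphatases that remove phosphate from ERK (Dusp4, Dusp6), and Sprouty and Spred proteins that hold back signalling between receptor and Raf (Spry1, Spry2, Spry4, Spred1). Etv1, Etv4 and Etv5 form the PEA3 subfamily of ETS transcription factors, which are induced by FGF and ERK and bind DNA at a GGAA core. Ier3 is an immediate-early gene that responds to growth factors and stress. In the cortex the pathway acts in radial glia and glial progenitors, and Etv1 is also known as a marker of layer 5 projection neurons.

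The stretches just upstream of the transcription start are shown for Dusp6, Spry1, Spry2 and Etv5, which ran together across the tumours, and for Etv1, which did not. They are 250 bases each, from the mouse assembly GRCm38.p6 as given by RefSeq, 5′ to 3′ on the gene's own strand, and capitals mark GGAA, or TTCC where GGAA lies on the opposite strand. Dusp6 lies on the plus strand (chr10:99262981-99263230), Spry1 on the plus strand (chr3:37639697-37639946), Spry2 on the minus strand (chr14:105896820-105897069), Etv5 on the minus strand (chr16:22438369-22438618) and Etv1 on the plus strand (chr12:38779832-38780081). For Etv1 and Etv5, which have 2 annotated starts each, the start listed first is shown.
Dusp6: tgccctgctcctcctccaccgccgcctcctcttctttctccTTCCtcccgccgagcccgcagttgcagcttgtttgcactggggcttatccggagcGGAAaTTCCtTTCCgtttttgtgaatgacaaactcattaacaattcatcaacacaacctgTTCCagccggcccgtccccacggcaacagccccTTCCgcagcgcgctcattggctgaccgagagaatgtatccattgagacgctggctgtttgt
Spry1: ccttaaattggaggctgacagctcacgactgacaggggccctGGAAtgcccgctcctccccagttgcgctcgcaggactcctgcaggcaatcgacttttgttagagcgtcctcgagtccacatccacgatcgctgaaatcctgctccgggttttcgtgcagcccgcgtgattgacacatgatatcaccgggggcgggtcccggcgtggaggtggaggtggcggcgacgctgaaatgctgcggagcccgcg
Spry2: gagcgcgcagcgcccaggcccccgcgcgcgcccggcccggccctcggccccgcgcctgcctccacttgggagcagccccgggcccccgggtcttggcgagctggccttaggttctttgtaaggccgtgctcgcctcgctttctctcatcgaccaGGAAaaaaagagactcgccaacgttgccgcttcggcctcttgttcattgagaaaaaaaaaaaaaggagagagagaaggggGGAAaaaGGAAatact
Etv5: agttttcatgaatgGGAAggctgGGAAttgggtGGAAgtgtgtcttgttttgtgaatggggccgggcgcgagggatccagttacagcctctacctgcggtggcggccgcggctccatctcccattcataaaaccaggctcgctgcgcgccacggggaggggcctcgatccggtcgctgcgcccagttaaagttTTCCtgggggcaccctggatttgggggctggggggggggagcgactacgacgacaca
Etv1: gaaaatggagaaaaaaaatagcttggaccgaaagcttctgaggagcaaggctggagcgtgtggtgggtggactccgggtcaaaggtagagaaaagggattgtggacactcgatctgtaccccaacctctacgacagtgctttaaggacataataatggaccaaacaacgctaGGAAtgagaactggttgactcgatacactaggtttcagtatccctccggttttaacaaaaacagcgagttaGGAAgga
Dusp6 holds 6 GGAA matches in this window, Etv5 4, Spry2 3, Etv1 2 and Spry1 1. RefSeq promoters were read for 7 of the 10 genes, Dusp4, Spry4 and Etv4 being the others. The search left out 1 chromosome, so a gene not read here need not be missing from RefSeq. Of their 9 starts, the remaining ones hold 4 matches at Spred1, 5 at Ier3, 1 at the second Etv1 start and 0 at the second Etv5 start. GGAA is a short word that occurs in 93.4% of 32851 mouse promoters of the same length, with a median of 3 matches, so its presence does not set these genes apart. The longer form GGAAGT occurs in 19.7% of promoters and was found once among the 9, at the first Etv5 start from base -217 to -212, where it contains one of the GGAA matches. CCGGAA (12.03% of promoters), the AP-1 word TGANTCA (6.75%) and the CRE word TGACGTCA (1.55%) were found in none of the 9, each searched on both strands. A match is a description of these letters only.

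The series as a whole was even in scale, with array medians between 4.98 and 5.19. Astrocyte markers averaged a log2 value of 7.98 to 10.79 per tumour, and radial glia and neural stem markers 7.84 to 9.70. Mature neuron markers averaged 4.55 to 10.48, and microglia and macrophage markers 7.39 to 9.67. With no reference tissue among the samples, these means describe the tumours and do not test their origin. The 8 tested markers of ependymal cells and motile cilia averaged 5.22 to 6.59 in the 11 tumours labelled ependymoma and 5.17 to 6.01 in the 4 labelled HGG, so these ranges overlap. The sample titles carry 2 prefixes, elw (18 tumours) and mmr (6 tumours), a distinction whose meaning is not given in the sources used here. Of the RAB3A group 4 tumours are elw, of the BC74C group 8 and of the ZNF668 group 6. Since the prefix may mark a batch, values within each set of titles are given beside the results. RAB3A replicate 5 and ZNF668 replicate 9, both mmr tumours labelled UNKNOWN, stood apart by low levels of most of the 10 genes. Results that rest on them are given with and without them where both were run. In these bulk samples, fewer cells of a type and less RNA per cell cannot be told apart.

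Among the phosphatases, Dusp6, which acts on ERK in the cytoplasm, averaged 11.19 ± 0.85 (SD, n = 24) and ranged from 9.37 to 12.26. Dusp4, a nuclear phosphatase, averaged 7.08 ± 0.85 (SD, n = 24) and ranged from 5.16 to 8.49. The Sprouty genes covered wide ranges. Spry1 ran from 5.66 to 10.57 with a mean of 9.22 ± 1.19 (SD, n = 24). Spry4 ran from 5.25 to 10.11 with a mean of 8.30 ± 1.14 (SD, n = 24). Spry2 ran from 7.596 to 10.59 and averaged 9.60 ± 0.76 (SD, n = 24), whereas Spred1, which binds Ras pathway components at the membrane, kept to 9.37 to 11.11 around 10.43 ± 0.42 (SD, n = 24). The ETS factors differed in their spread as well. Etv5 averaged 10.58 ± 0.82 (SD, n = 24), from 8.24 to 11.66, and Etv4 averaged 5.998 ± 0.96 (SD, n = 24), from 3.90 to 7.78. Etv1 had the smallest SD of the 10, averaging 9.44 ± 0.37 (SD, n = 24) and ranging from 8.34 to 9.89. Ier3 averaged 9.08 ± 0.90 (SD, n = 24), from 7.61 to 11.03. The level of one gene's probe set cannot be set against that of another, so no order of abundance is drawn from these means.

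The main pattern was that 9 of the 10 genes rose and fell together from tumour to tumour, with Etv1 apart from them. Of the 45 pairs of genes, 33 had a positive Pearson correlation past an adjusted p of 0.05 and 0 a negative one (two-sided permutation tests over 24 tumours, Benjamini-Hochberg adjustment over the 45 pairs). The median r was 0.64. For comparison, 12.7% of the relations of these 10 genes with all other genes tested reached the smallest r called, 0.49, and for Etv1 alone the share was 0.976%. The 15 pairs among Dusp6, Spry1, Spry2, Spry4, Spred1 and Etv5, a set singled out after the values were seen, all passed, with r from 0.79 to 0.95. Dusp4 passed with 6 of the other genes, as did Etv4 and Ier3. The 3 pairs among Dusp4, Etv4 and Ier3 did not pass (r = 0.36 for Etv4 with Ier3, 0.34 for Dusp4 with Ier3 and 0.27 for Dusp4 with Etv4).

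**Figure D1:**
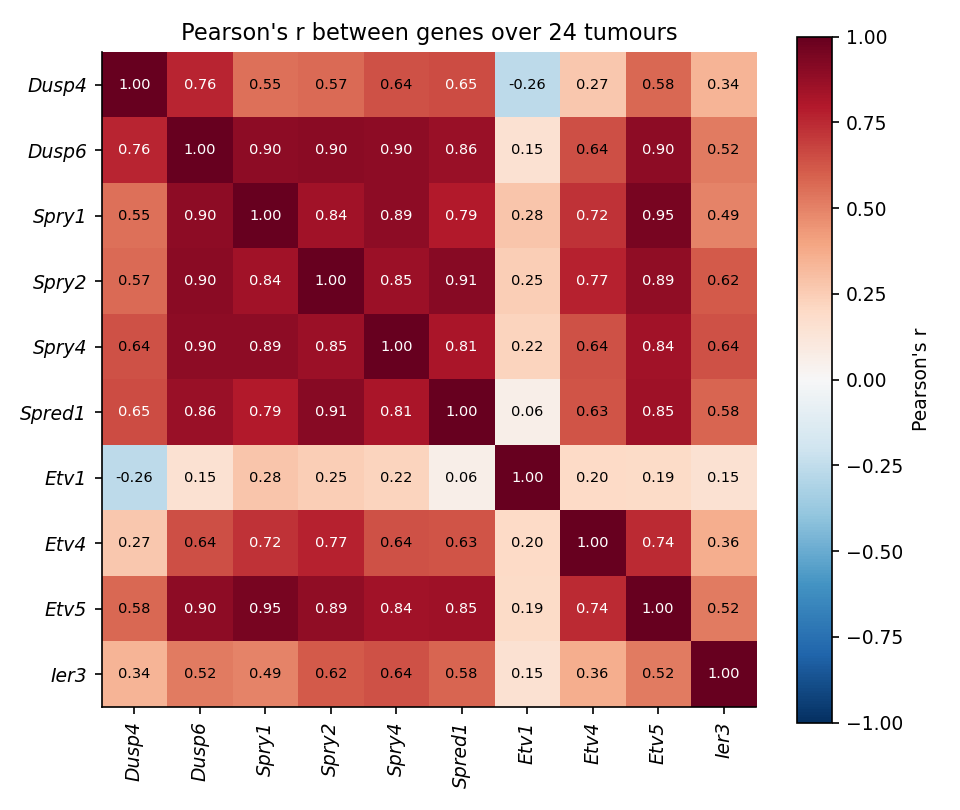
Pearson's r between each pair of the 10 genes over 24 tumours, as a coloured grid with the value in each cell. All pairs without Etv1 are positive, from 0.27 to 0.95, whereas the row of Etv1 runs from -0.26 to 0.28.

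The closest pair was Spry1 and Etv5, a feedback inhibitor and a transcription factor, with r = 0.95 (permutation p = 1e-05, the smallest that 100000 permutations can give; adjusted p = 2.65e-05) and Spearman's rho = 0.92. Without RAB3A replicate 5 and BC74C replicate 7, the tumours farthest from the median of Spry1, r was 0.93. It was 0.90 within the elw tumours, 0.99 within the mmr tumours, and 0.896 to 0.995 within the single class genes. Spry2 and Spred1, both feedback inhibitors, followed with r = 0.91 and rho = 0.82, falling to r = 0.79 without the 2 farthest tumours. Dusp6 had r = 0.90 with each of Spry2, Spry4, Spry1 and Etv5, with rho from 0.86 to 0.93. Without ZNF668 replicate 9 and RAB3A replicate 5 those 4 values were 0.84, 0.88, 0.86 and 0.83. Each of these 5 further pairs had the same permutation p and adjusted p as the first. Within the elw tumours r was 0.79 for Spry2 with Spred1 and 0.81 to 0.88 for the 4 Dusp6 pairs, and within the mmr tumours 0.97 and 0.91 to 0.98.

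Etv1 was not past the threshold with any of the other 9 genes (adjusted p from 0.227 to 0.789). Its r was lowest with Dusp4, -0.26 (rho = -0.23), and highest with Spry1, 0.28 (rho = -0.11). With its own subfamily members it was 0.19 for Etv5 and 0.20 for Etv4, and both turned negative, -0.41 and -0.25, without RAB3A replicates 5 and 1, the tumours farthest from the median of Etv1. Its relation to Dusp6 was 0.15 over all tumours, 0.68 in the RAB3A tumours, -0.02 in the BC74C tumours and -0.53 in the ZNF668 tumours, values over 6, 9 and 9 tumours whose differences were not tested. RAB3A replicate 5 had the lowest Dusp6 (9.44) and the lowest Etv1 (8.34) of its group. ZNF668 replicate 9 had the lowest Dusp6 (9.37) and the highest Etv1 (9.80) of its group. Without both, r was -0.08 over the remaining tumours, and the values within class genes were not computed without them.

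The pairs were computed again with class means or marker means removed, and in subsets of the tumours. With the mean of each class gene removed, 33 of the 45 pairs passed. With the mature neuron and mature oligodendrocyte marker means regressed out, 24 passed and the median r was 0.55. The radial glia and oligodendrocyte progenitor means were not regressed out, and their part was not tested. Of the pairs, 26 passed within the elw tumours and 21 within the 6 mmr tumours, at a median r of 0.59 and 0.84. When RAB3A replicate 5 and ZNF668 replicate 9 were left out together, a choice made after the data were seen, 31 passed. Leaving out any single tumour gave 31 to 35.

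**Figure D2:**
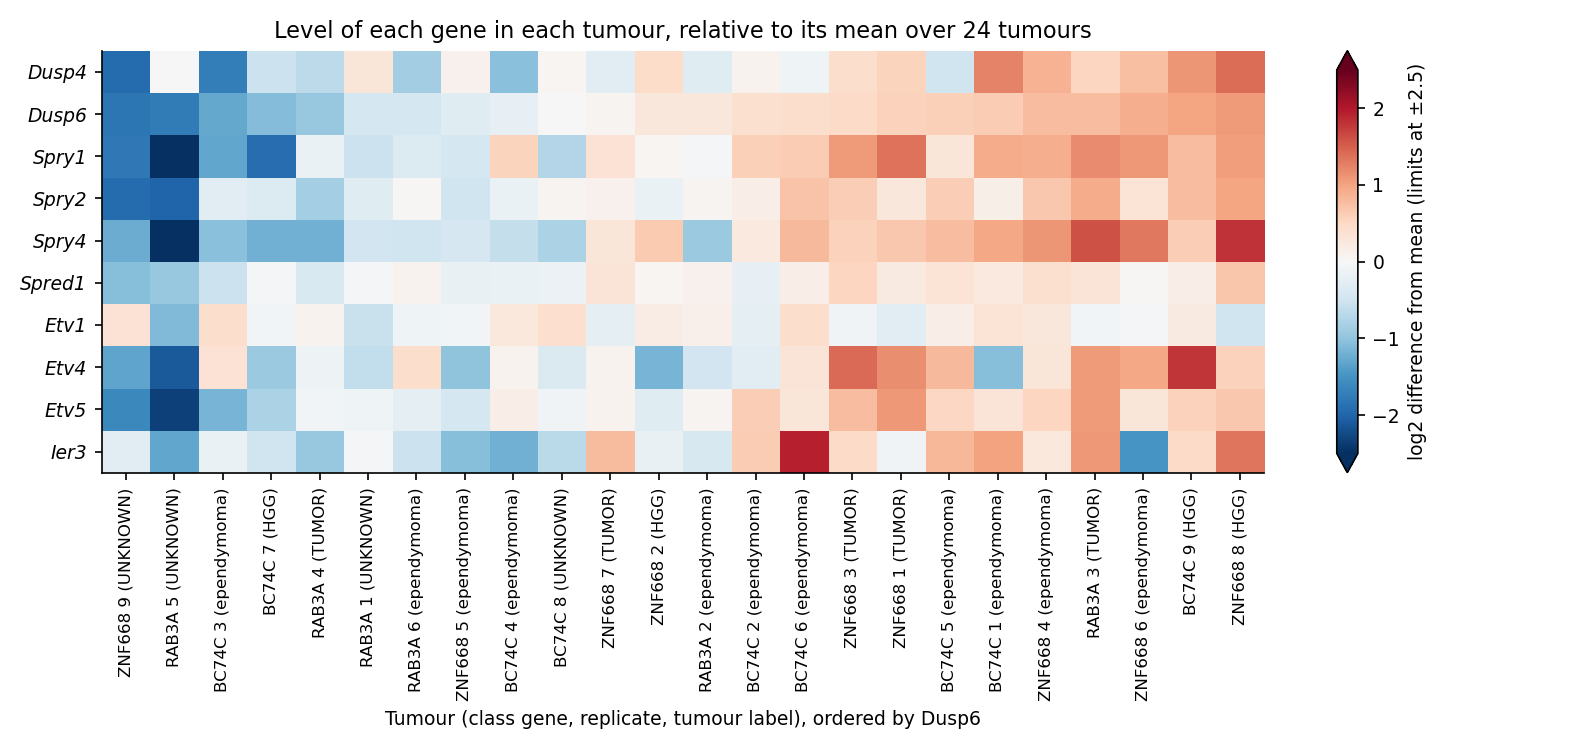
Level of each of the 10 genes in each of 24 tumours as a log2 difference from that gene's mean, with tumours ordered by Dusp6 and colours limited to differences of 2.5. The left columns are low and the right columns high for most genes, ZNF668 replicate 9 being the lowest for Dusp6 and ZNF668 replicate 8 the highest, whereas the row of Etv1 is pale and shows no such order.

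A pair of tumours stood at the low end. RAB3A replicate 5, labelled UNKNOWN, was among the 4 lowest tumours for 9 of the 10 genes, Dusp4 being the exception. Its Spry1 was 5.66, its Spry2 7.596, its Spry4 5.25, its Etv4 3.90 and its Etv5 8.24, each the lowest of the 24, as was its Etv1 of 8.34. ZNF668 replicate 9, also labelled UNKNOWN, was among the 4 lowest for 8 genes, with the lowest Dusp6 (9.37), Spred1 (9.37) and Dusp4 (5.16), yet its Etv1 of 9.80 was the highest of the ZNF668 group. BC74C replicate 3 (ependymoma) was among the 4 lowest for 5 genes and BC74C replicate 7 (HGG) for 4. At the high end stood ZNF668 replicate 8 (HGG) and RAB3A replicate 3 (TUMOR), each among the 4 highest for 7 genes. ZNF668 replicate 8 had a Dusp6 of 12.26, a Spry4 of 10.11, a Spred1 of 11.11 and a Dusp4 of 8.49, the highest of all tumours, and its Etv1 of 8.95 was the lowest of the ZNF668 group. The extremes thus came from all 3 class genes and from each of the 4 labels.

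The 2 lowest tumours also differed from the rest in cell markers. RAB3A replicate 5 had the lowest means of the 24 tumours for radial glia and neural stem markers (7.84) and for oligodendrocyte progenitor markers (7.32). ZNF668 replicate 9 had the lowest astrocyte mean (7.98), and the highest mature oligodendrocyte (10.81) and endothelial (8.16) means. In proliferation markers these 2 tumours went opposite ways. The mean was 9.31 in RAB3A replicate 5, the highest of the RAB3A group. It was 5.86 in ZNF668 replicate 9, the lowest of the ZNF668 group. Both carry mmr titles. The part of these differences in the low levels was not tested.

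Across all tumours, the 10 genes were compared with 10 marker lists, which gave 100 relations adjusted together. Of these 21 passed (two-sided permutation tests, 24 tumours). With radial glia and neural stem markers 7 genes correlated positively, led by Spry4 (r = 0.76, p = 1e-05, adjusted p = 0.001, rho = 0.67), Dusp6 (r = 0.73, p = 7e-05, adjusted p = 0.0025, rho = 0.57) and Spry1 (r = 0.72, p = 1e-04, adjusted p = 0.0025, rho = 0.56). With oligodendrocyte progenitor markers 6 correlated positively, Spry4 again most (r = 0.71, p = 0.00017, adjusted p = 0.00283, rho = 0.67). Mature neuron markers ran against 4 genes, Spry4 most (r = -0.63, p = 0.00089, adjusted p = 0.0098, rho = -0.63), and mature oligodendrocyte markers against 4, Spred1 most (r = -0.60, p = 0.00214, adjusted p = 0.0165, rho = -0.66). Without the 2 tumours farthest from each list's median these r were 0.66, 0.59, 0.57, 0.65, -0.73 and -0.63 in that order. Of the 7 genes called with the radial glia list, Etv5 and Etv4 did not pass by rho (0.44 and 0.41, permutation adjusted p = 0.0997 and 0.134). Without the 2 farthest tumours their r were 0.41 and 0.30. Etv5, called with the oligodendrocyte progenitor list, did not pass by rho there either (0.44, adjusted p = 0.0997). Many other genes ran with these lists too. Of the 13218 genes tested, 20.8% had an r with the radial glia list at least as high as the weakest of the 7 members called (0.52), and 10.1% with the oligodendrocyte progenitor list as high as the weakest of the 6 (0.55). For the mature neuron list 22.3% were as negative as the weakest of the 4 called (-0.52), and for the mature oligodendrocyte list 11.5% (-0.53). With the proliferation list of cell cycle genes 0 of the 10 genes passed by Pearson's r, which ran from -0.11 to 0.44. By Spearman's rho Spry4 passed (rho = 0.53, permutation test, adjusted p = 0.0353). Its r with this list was -0.14 within the RAB3A, 0.84 within the BC74C and 0.67 within the ZNF668 tumours. The difference between these values was not tested.

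Fewer of these relations passed within the sets of titles, and the part of the smaller number of tumours in this was not tested. Within the 18 elw tumours 2 of the 100 passed and within the 6 mmr tumours 0, though Spry4 kept r = 0.74 and 0.79 with the radial glia list. Without RAB3A replicate 5 and ZNF668 replicate 9 the count was 3, in the 22 tumours left. The elw tumours hold neither of these 2. Leaving out any single tumour gave 14 to 25.

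Dusp6 was then set against 62 tested genes of the ERK pathway, from lists of receptors, ligands, cascade components and other ERK target genes. This comparison was added after the data were seen. Of the 62 genes 19 had a positive and 10 a negative correlation past an adjusted p of 0.05 (permutation tests over 24 tumours, adjusted over the 62). Among all genes tested, 22.4% reached the smallest positive r called, 0.46, and 18.0% the weakest negative one, -0.47. The 10 negative genes are a smaller share of the 62 than that 18.0%, and the 19 positive ones a larger share than 22.4%. Neither difference was tested. The 4 lists differed in their make-up, as the next paragraphs describe, but the difference between lists was not tested.

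**Figure D3:**
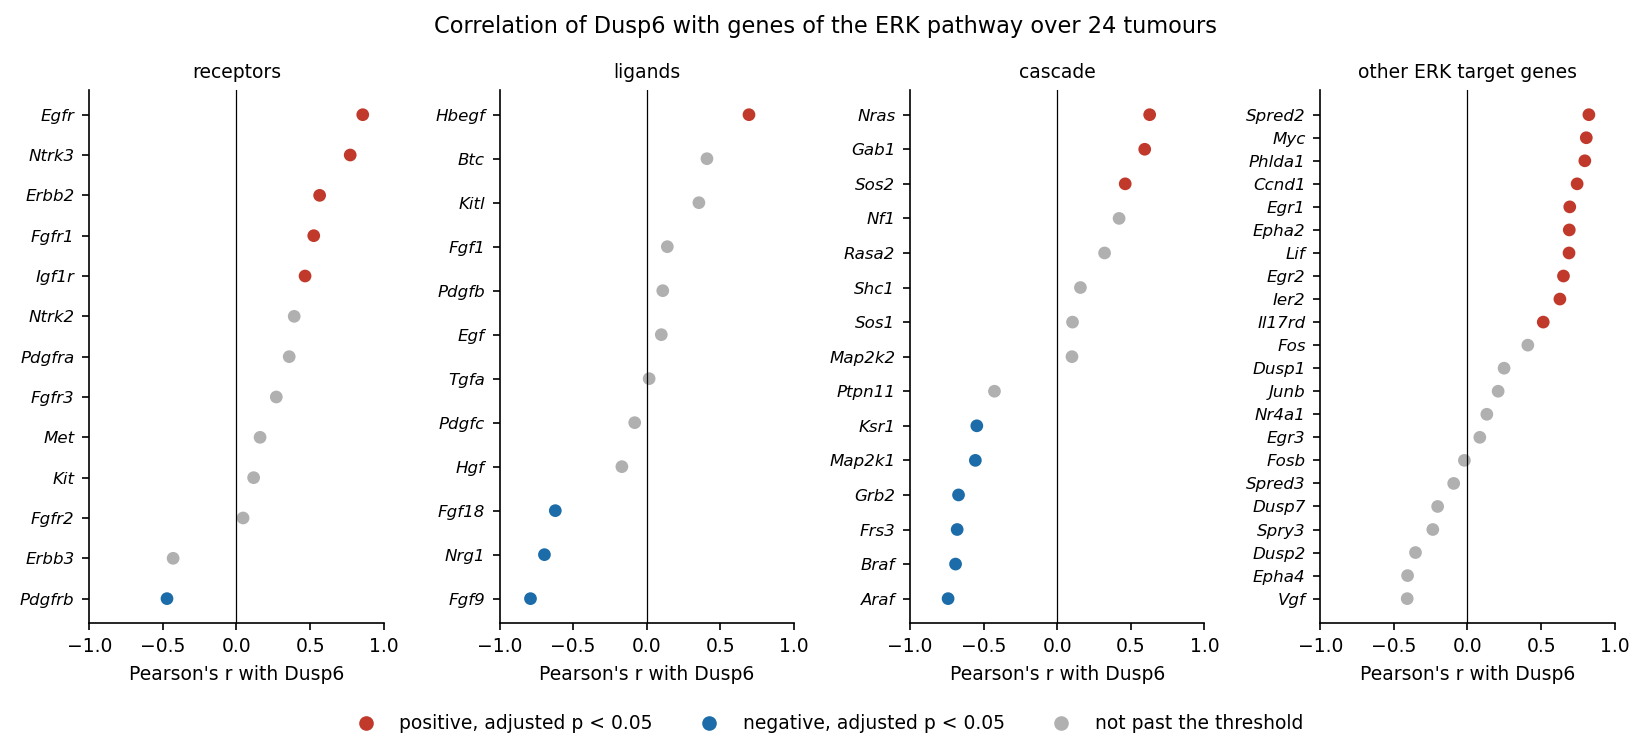
Pearson's r of Dusp6 with each of 62 ERK pathway genes over 24 tumours, in 4 panels by list, red for positive and blue for negative past an adjusted p of 0.05 and grey otherwise. In the panel of other ERK target genes 10 of 22 are red and 0 blue, whereas in the cascade panel 3 of 15 are red and 6 blue.

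Among the other ERK target genes, 10 of 22 were positive and 0 negative past the threshold, with a median r of 0.33. They were led by Spred2 (r = 0.82), a relative of Spred1, the growth regulator Myc (0.81), Phlda1 (0.80), cyclin D1 or Ccnd1 (0.74), and the immediate-early factor Egr1 (0.69), with rho of 0.71, 0.86, 0.79, 0.79 and 0.58. The permutation p was 1e-05 for the first 3, 4e-05 for Ccnd1 and 0.00025 for Egr1, and the adjusted p was 0.000103, 0.00031 and 0.00119. Without ZNF668 replicate 9 and RAB3A replicate 5 the r of these 5 genes were 0.67, 0.91, 0.71, 0.66 and 0.51. They were 0.82, 0.91, 0.75, 0.59 and 0.47 within the elw tumours, and within the mmr tumours 0.99, 0.76, 0.86, 0.91 and 0.91. Not every fast ERK target ran with Dusp6: Fos had r = 0.41 and Dusp1 0.25, neither past the threshold, and Fosb had -0.02.

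Among the receptors, 5 of 13 were positive and 1 negative past the threshold. The EGF receptor gene Egfr had the highest r of all 62 genes, 0.86 (permutation p = 1e-05, adjusted p = 0.000103, rho = 0.83). It was 0.74 without the 2 lowest tumours, 0.74 within the elw and 0.94 within the mmr tumours, and 0.78 after neuron and oligodendrocyte markers were regressed out. Egfr itself ranged from 6.57 in ZNF668 replicate 9 and 7.01 in RAB3A replicate 5 to 11.08 in BC74C replicate 9. Ntrk3, which encodes a neurotrophin receptor, had r = 0.77. The negative receptor was Pdgfrb (r = -0.47, adjusted p = 0.0463), which is also in the pericyte marker list. Pdgfra, a marker of oligodendrocyte progenitors, was not past the threshold (r = 0.36, adjusted p = 0.138).

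Among 12 ligands 1 was positive and 3 negative. The positive one was the EGF receptor ligand Hbegf (r = 0.69, adjusted p = 0.00112). The negative ones were Fgf9 (r = -0.79, permutation p = 1e-05, adjusted p = 0.000103, rho = -0.79), Nrg1, which encodes a ligand of the ErbB receptors (-0.70), and Fgf18 (-0.62). Without the 2 lowest tumours Fgf9 had r = -0.80, and it had -0.80 within the elw and -0.94 within the mmr tumours. Of the 15 cascade genes tested, 3 were positive (Nras 0.63, Gab1 0.59 and Sos2 0.46). Another 6 were negative: Araf (-0.74), Braf (-0.69), Frs3 (-0.68), Grb2 (-0.67), Map2k1 (-0.56) and Ksr1 (-0.55). Araf and Braf encode Raf kinases and Map2k1 the kinase Mek.

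All 29 genes past the threshold kept their sign within the elw tumours, within the mmr tumours, without the 2 lowest tumours, without each single tumour and after neuron and oligodendrocyte markers were regressed out. Within single class genes 3 turned: Nrg1 (r = 0.20) and Lif (-0.030) in the RAB3A tumours and Sos2 (-0.089) in the BC74C tumours. The number past the threshold fell to 18 within the elw tumours, 2 within the mmr tumours, 21 without the 2 lowest tumours and 19 after that regression.

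**Figure D4:**
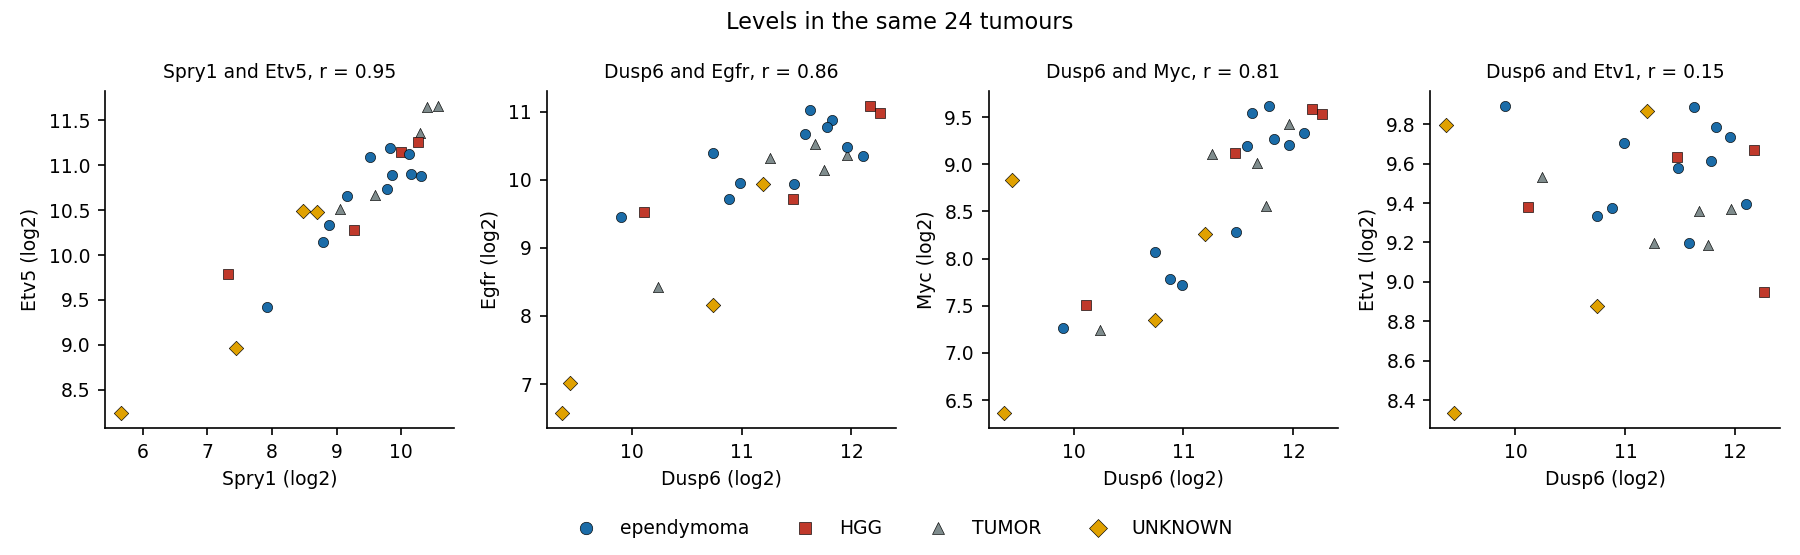
Log2 levels of 4 pairs of genes in the same 24 tumours, with symbols and colours for the tumour label. Spry1 with Etv5, Dusp6 with Egfr and Dusp6 with Myc rise together (r = 0.95, 0.86 and 0.81), and Dusp6 with Etv1 shows no such trend (r = 0.15).

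Seen from the whole array, the genes most like Dusp6 were Klf3 (r = 0.94), Dennd2a (0.93) and Hip1 (0.91), over 24 tumours and 13217 other genes, of which 99% lay below 0.81. Klf3, which encodes a Krüppel-like transcription factor, was also among the 3 most like Spry1, Spry2 and Etv5 (0.93, 0.91 and 0.92). Egfr was the gene most like Spry2 (0.92), followed by Pou3f3 (0.92). For Spry4 they were Zfp532 (0.94), Phlda1 (0.93) and Angpt2 (0.92). The closest gene to Spry1 was Etv5 itself, and Cd276 was also close (0.93), and the closest to Etv5 was Spry1, and Arhgap31 was also close (0.90). The closest to Spred1 was Spry2, followed by Cbr3 (0.90) and Ctnnb1 (0.89). Of the other 9 genes, 5 were among the 100 genes most like Dusp6, and the same number held for Spry2, Spred1 and Etv5. That number was 4 for Spry1 and Spry4, 3 for Etv4, 1 for Dusp4 and 0 for Etv1 and Ier3.

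The remaining members had other neighbours. Ier3 was most like Nes (r = 0.80), Inka2 (0.78) and Hes1 (0.77). Nes encodes the intermediate filament nestin and Hes1 a transcription factor of the Notch pathway, and both are in the radial glia list. The mean of that whole list had r = 0.46 with Ier3, not past the threshold (permutation test, adjusted p = 0.0781). Etv4 was most like Zfp945 (0.86), Zfp949 (0.83) and Tslp (0.79), and Dusp4 most like Ascc2 (0.83), Mlx (0.81) and Atp13a3 (0.80). The highest r of any gene with Etv1 was 0.71, for Marchf8, followed by Arl3 and Esrra (both 0.68). These r are a description of likeness over these tumours.

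The first comparison the design asks for is between class genes. No member passed in RAB3A minus ZNF668 (limma, Benjamini-Hochberg adjusted over 13218 genes, threshold 0.05), where 0.0757% of all genes, 10 in number, were called. At an unadjusted p under 0.05 there was 1 member on the first probe sets, Spry4, against 9.21% of all genes. All 10 differences were negative, from -1.30 to -0.23 with a median of -0.40, while the median over all genes was -0.04 and 7429 of 13218 genes were negative. Since 9 of the genes vary together, their signs are not separate pieces of evidence. The model held no term for the tumour label, and labels were not balanced over the class genes. UNKNOWN marks 2 RAB3A, 1 BC74C and 1 ZNF668 tumours, and HGG 0, 2 and 2. Among the ependymomas alone (2 RAB3A and 3 ZNF668 tumours) the median was -0.17 with 2 of the 10 positive. The part of the labels was not tested. Beside the values over all 24 tumours, the 11 mature neuron markers were all positive with a median difference of 1.51. The 10 proliferation genes were all negative with a median of -0.90, and so were the 10 radial glia markers with a median of -0.28. None of these markers passed. With neuron and oligodendrocyte markers as covariates the median of the ERK output genes was -0.29, and the part of proliferation and radial glia markers was not tested.

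Spry4 levels were 5.25, 7.59 and 9.89 (lowest, median and highest) in the 6 RAB3A tumours and 7.07, 8.96 and 10.11 in the 9 ZNF668 tumours. The groups overlap: RAB3A replicate 3 lay above most ZNF668 tumours, and ZNF668 replicate 9 below most RAB3A tumours. The difference was -1.30 (SE 0.53, limma adjusted p = 0.525, 95% interval -2.40 to -0.20). Without RAB3A replicate 5 it was -0.84. Within the elw tumours it was -0.91 and within the mmr tumours -2.07. For Spry1 the levels were 5.66, 8.97 and 10.40 in RAB3A and 7.44, 10.13 and 10.57 in ZNF668 tumours, a difference of -0.99 (SE 0.59, limma adjusted p = 0.559). It was -0.39 without RAB3A replicate 5, and the median over the 10 genes was then -0.12. That median moved the other way, to -0.66 without RAB3A replicate 3 and to -0.63 without ZNF668 replicate 9. Without both RAB3A replicate 5 and ZNF668 replicate 9 it was -0.27, with 0 of the 10 positive. Of the further probe sets, number 3 of Spred1 had the opposite sign, 0.22 against -0.25 on the first. Etv1 differed by -0.23 on its first probe set and by -0.29 on its probe set 3. On its probe set 2 it differed by -0.57 (SE 0.17, limma unadjusted p = 0.0031, adjusted p = 0.416), a smaller unadjusted p than that of Spry4 (0.023).

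**Figure D5:**
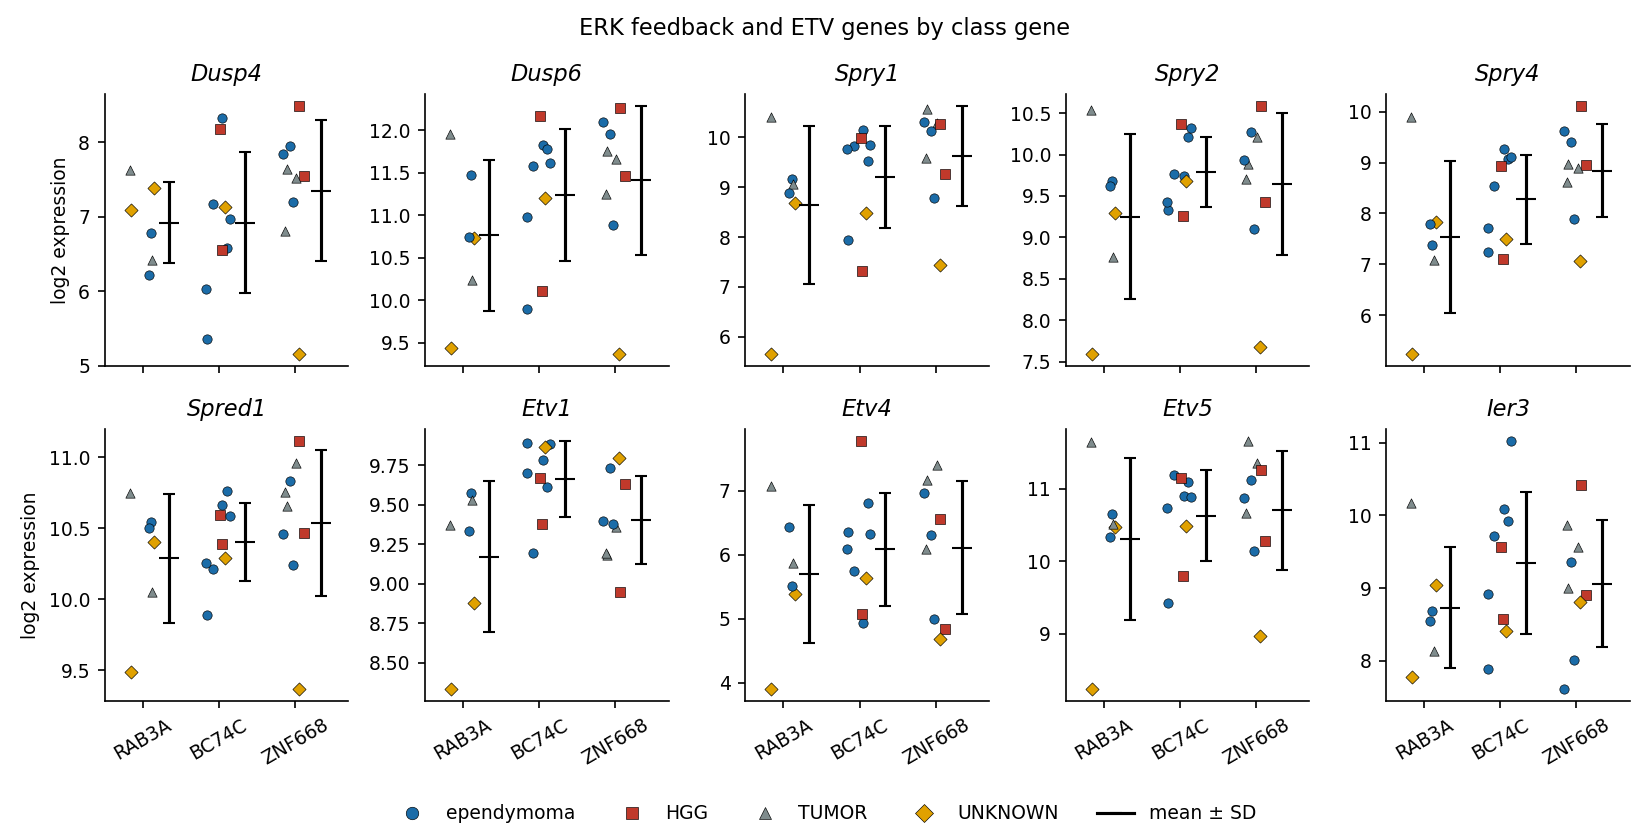
Log2 level of each of the 10 genes in each tumour by class gene (6 RAB3A, 9 BC74C and 9 ZNF668 tumours), with symbols and colours for the tumour label and the mean ± SD beside the points. The class genes overlap in every panel. A tumour labelled UNKNOWN is the lowest of the RAB3A group for 9 genes and of the ZNF668 group for 8, whereas for Etv1 the highest ZNF668 tumour is the one labelled UNKNOWN.

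In BC74C minus ZNF668, 0 of the 10 genes passed by limma, against 0.303% (40) of all genes. On the first probe sets 0 had an unadjusted p under 0.05, against 6.88% of all genes. Of the differences 3 were positive and 7 negative, with a median of -0.10, beside 0.00 over all genes. Among the ependymomas alone (6 BC74C and 3 ZNF668 tumours) the median was -0.08 with 3 positive. The comparison shares its ZNF668 tumours with the previous one. Within the elw tumours the median was -0.37 with 2 positive, and within the mmr tumours, which hold 1 BC74C tumour, 0.87 with 9 positive. Without ZNF668 replicate 9 it was -0.29 with 2 positive, and without BC74C replicate 7 the signs were 5 positive and 5 negative. Etv1 had the largest moderated t. Its levels were 9.20, 9.70 and 9.89 in the 9 BC74C tumours and 8.95, 9.38 and 9.80 in the 9 ZNF668 tumours. The ranges overlap over most of their length, and the difference was 0.26 (SE 0.15, limma adjusted p = 0.848, interval -0.05 to 0.58). Probe set 2 of Etv1 gave 0.33 (SE 0.15, limma unadjusted p = 0.0438, adjusted p = 0.700). Its probe set 3 gave 0.29 (SE 0.17, adjusted p = 0.848). Spry4 had a difference of -0.56 (SE 0.48, limma adjusted p = 0.950), with levels of 7.11, 8.54 and 9.26 in BC74C tumours.

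In RAB3A minus BC74C 0 members and 0% of all genes passed by limma. Etv1 was the one member with an unadjusted p under 0.05, against 8.21% of all genes. The 10 differences were all negative, with a median of -0.49 beside -0.04 over all genes. Within the elw tumours 5 of the 10 were positive. Without RAB3A replicate 5, 3 were positive and the median was -0.12. Among the ependymomas alone (2 RAB3A and 6 BC74C tumours) 1 was positive and the median was -0.22. Spred1, at -0.12 on its first probe set, was at 0.04 on its probe set 3. Beside these values, the proliferation genes were negative for 10 of 10 (median -1.04), the radial glia markers negative for 8 of 10 (-0.59) and the mature neuron markers positive for 10 of 11 (0.71). With neuron and oligodendrocyte covariates the median of the ERK output genes was -0.40 with 1 positive, and the part of the proliferation and radial glia markers was not tested. Etv1 levels in the 6 RAB3A tumours were 8.34, 9.35 and 9.58, all below the BC74C median of 9.70. The difference was -0.49 (SE 0.17, limma adjusted p = 0.427, interval -0.85 to -0.14). The other 2 probe sets of Etv1 gave -0.90 (SE 0.17, adjusted p = 0.0690) and -0.58 (SE 0.19, adjusted p = 0.398), so all 3 had the same sign and none passed. On the first probe set the difference was -0.33 without RAB3A replicate 5 and -0.32 within the elw tumours. Spry2 differed by -0.54 (SE 0.38, adjusted p = 0.725) and by -0.21 without RAB3A replicate 5.

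The second comparison is between tumour labels. HGG minus ependymoma used the 15 tumours of these kinds and adjusted for the class gene. No RAB3A tumour is labelled HGG, so the 2 RAB3A ependymomas do not enter the difference itself. They are among the 11 ependymomas whose levels are given below. By limma 0 of the 10 genes and 0% of all genes passed, and 0 of the 10 had an unadjusted p under 0.05, against 1.73% of all genes. The differences were 6 positive and 4 negative with a median of 0.03. The balance of signs turned on single tumours: 9 were positive without BC74C replicate 7 (median 0.44) and 8 without ZNF668 replicate 2 (0.19), but 3 without BC74C replicate 9 (-0.25), 3 without ZNF668 replicate 5 (-0.15) and 2 without ZNF668 replicate 8 (-0.16). Beside them, 10 of 10 proliferation genes were positive (median 0.59) and 10 of 11 mature neuron markers negative (-0.65). With neuron and oligodendrocyte covariates 4 members were positive, with a median of -0.12, and the part of the proliferation genes was not tested. Etv1 was 9.38 and 9.67 in the HGG tumours of BC74C and 9.63 and 8.95 in those of ZNF668, against 9.20, 9.62 and 9.89 in 11 ependymomas, a difference of -0.18 (SE 0.16, adjusted p = 0.9998). Dusp4 was 6.55 and 8.18 in the HGG tumours of BC74C and 7.55 and 8.49 in those of ZNF668, against 5.36, 6.97 and 8.32 in the ependymomas. The groups overlap, and the difference was 0.51 (SE 0.47, limma adjusted p = 0.9998). Within the elw tumours all 10 differences were negative, with a median of -0.57. The HGG tumours there are BC74C replicate 7 and ZNF668 replicate 2.

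Whether the HGG difference itself depends on the class gene could be asked for BC74C and ZNF668, in 13 tumours. By limma 0 members and 0% of all genes passed. At an unadjusted p under 0.05 there were 0 members against 8.16% of all genes. Ier3 had the largest interaction, -1.86 (SE 1.09, adjusted p = 0.628). In BC74C its level was 8.58 and 9.56 in the HGG tumours and between 7.89 and 11.03 in the ependymomas, and in ZNF668 it was 8.91 and 10.42 in the HGG tumours and 9.36, 8.01 and 7.61 in the ependymomas. The interval of that interaction ran from -4.24 to 0.52, so the precision here is low. Over the 10 members the interactions were 3 positive and 7 negative with a median of -0.25. Here too the balance turned on single tumours, with 7 positive (median 0.36) without BC74C replicate 7, 6 (0.09) without ZNF668 replicate 8, 5 (0.01) without ZNF668 replicate 5, 1 (-0.77) without ZNF668 replicate 2 and 0 (-0.87) without BC74C replicate 9. The proliferation genes had 10 of 10 negative interactions with a median of -2.85, a part that was not tested. With neuron and oligodendrocyte covariates 7 of the 10 ERK output genes were positive, against 3 without.

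In TUMOR minus ependymoma 0 members and 0% of all genes passed by limma, and 0 members had an unadjusted p under 0.05, against 1.90% of all genes. The differences were positive for 9 of 10, with a median of 0.18 beside -0.04 over all genes. No BC74C tumour is labelled TUMOR, whereas 6 of the 11 ependymomas whose levels are given below are BC74C tumours. Etv4 and Etv5 had the largest differences, followed by Ier3 (0.58). Etv1, the remaining ETS factor, was the 1 negative member (-0.08), and its other probe sets gave -0.29 and -0.12. Etv4 was 7.07 and 5.87 in the RAB3A tumours labelled TUMOR and 7.16, 7.41 and 6.09 in those of ZNF668, against 4.94, 6.30 and 6.96 in the ependymomas. Of the 5 tumours 3 lay above the highest ependymoma, and the difference was 0.86 (SE 0.49, limma adjusted p = 0.9999). Etv5 was 11.65 and 10.52 in those of RAB3A and 11.66, 11.36 and 10.67 in those of ZNF668, against 9.42, 10.88 and 11.19 in the ependymomas. The same 3 tumours lay above the highest ependymoma, with a difference of 0.61 (SE 0.40, limma adjusted p = 0.9999). The median of the 10 moved with single tumours. It was 0.04 with 5 positive without RAB3A replicate 3, 0.09 with 7 positive without BC74C replicate 8 or without ZNF668 replicate 5, and 0.46 without RAB3A replicate 4. Without BC74C replicate 7, ZNF668 replicate 4 or ZNF668 replicate 6 it was 0.27 to 0.29, and without RAB3A replicate 5 and ZNF668 replicate 9 together 0.09. Beside these values all 11 mature neuron markers were negative (median -0.71), as were all 7 mature oligodendrocyte markers (-0.83). With the means of both lists as covariates 6 of the 10 members were positive and the median was 0.07.

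The lowest levels were in tumours labelled UNKNOWN. In UNKNOWN minus ependymoma 0 members and 0% of all genes passed by limma. At an unadjusted p under 0.05 there were 6 members, all lower, against 16.3% of all genes in either direction and 11.2% lower. All 10 differences were negative, with a median of -1.02 beside -0.05 over all genes. The 6 members were Spry1, Spry2, Spred1, Etv5, Spry4 and Dusp6, with adjusted p from 0.206 to 0.264. They are the same 6 genes whose levels ran closest together, so they are not 6 separate observations.

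Spry1 was 8.49 in BC74C replicate 8, 8.69 in RAB3A replicate 1, 5.66 in RAB3A replicate 5 and 7.44 in ZNF668 replicate 9, against 7.93, 9.78 and 10.31 in the 11 ependymomas. The last 2 of these 4 tumours lay below every ependymoma and the first 2 inside their range. The difference was -1.77 (SE 0.55, limma adjusted p = 0.206). Dusp6 was 11.20, 10.74, 9.44 and 9.37 in the same order, against 9.90, 11.58 and 12.10 in the ependymomas, and Spry2 was 9.67, 9.30, 7.596 and 7.68 against 9.10, 9.74 and 10.32. The differences were -1.09 (SE 0.45, adjusted p = 0.264) and -1.10 (SE 0.38, adjusted p = 0.219). Spry4 differed by -1.39 (SE 0.56, adjusted p = 0.253), Etv5 by -1.03 (SE 0.41, adjusted p = 0.246) and Spred1 by -0.56 (SE 0.21, adjusted p = 0.238), with the same 2 tumours lowest each time.

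This difference rested on RAB3A replicate 5 and ZNF668 replicate 9. The median over the 10 genes was -0.71 without the first alone and -0.68 without the second alone. Without both it was -0.21, with 1 positive, and the differences were -0.72 for Spry1, -0.53 for Spry4, -0.21 for Dusp6, -0.20 for Spry2, -0.12 for Etv5 and -0.05 for Spred1. Among the elw tumours, which hold neither, the median was -0.22. Beside it, the UNKNOWN tumours had mature neuron means of 9.10 to 10.48 and mature oligodendrocyte means of 7.66 to 10.81. In the ependymomas these were 6.69 to 9.80 and 5.30 to 10.27. Their radial glia means were 7.84 to 8.63 against 8.30 to 9.63. With the neuron and oligodendrocyte means as covariates the median of the 10 genes was -0.82. The part of the radial glia markers was not tested.

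The rest of the ERK pathway was followed in the same comparisons, through 62 tested genes of the 4 lists. By limma 0 of the 62 passed in any of the 7 comparisons. At an unadjusted p under 0.05 there were 8 in RAB3A minus ZNF668 (1 higher, 7 lower), 3 in BC74C minus ZNF668, 8 in RAB3A minus BC74C, 3 in HGG, 1 in TUMOR and 12 in UNKNOWN minus ependymoma, and 5 in the interaction. In that order these are 12.9%, 4.84%, 12.9%, 4.84%, 1.61%, 19.4% and 8.06% of the 62 genes, beside 9.21%, 6.88%, 8.21%, 1.73%, 1.90%, 16.3% and 8.16% of all genes. The genes named next are those with the smallest p in each direction. In RAB3A minus ZNF668 the smallest p among genes that were higher belonged to the scaffold gene Ksr1 (0.74, SE 0.25, limma adjusted p = 0.470) and to Braf (0.44, SE 0.23, adjusted p = 0.543). Among those lower it belonged to Kitl, which encodes the ligand of the receptor Kit (-0.97, SE 0.35, adjusted p = 0.479), and to Map2k2 (-0.34, SE 0.12, adjusted p = 0.479). Of 22 other ERK target genes, 14 were negative in that comparison, with a median of -0.22. In BC74C minus ZNF668 they were Btc (0.45) and Egr2 (0.92) among the higher, and Kit (-0.82, adjusted p = 0.277) and Pdgfra (-0.68) among the lower. The oligodendrocyte progenitor markers, a list that includes Pdgfra, had 10 of 10 negative differences there, with a median of -1.001 and 0 past the adjusted threshold. In HGG minus ependymoma they were Tgfa (0.94), an EGF receptor ligand, and Dusp2 (0.50) among the higher, and Fgfr1 (-0.68) and Dusp1 (-0.74) among the lower, all with an adjusted p of 0.9998.

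Where a gene had further probe sets, they were set beside the first. The second probe set of Spry4 followed the first with r = 0.96 and that of Spred1 with r = 0.96, while probe set 3 of Spred1 did so with r = 0.32. For Spry2 the second gave r = 0.69, and for Etv1 probe sets 2 and 3 gave 0.74 and 0.65. Probe set 4 of Spry4 lay below the filter on low signal (mean 3.33). Etv5 has 1 probe set of its own and 2 that also carry the symbol Scpep1, which followed it with r = 0.78 and 0.97 and were not used. In 2430 fits of single members under other settings, other probe sets included, 0 reached an adjusted p under 0.05 by limma. The smallest was 0.0618, for Spry1 in UNKNOWN minus ependymoma with array weights.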

How the data were processed

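Total RNA was extracted with Trizol and biotin-labelled cRNA was hybridised to Affymetrix arrays, 1 per tumour, per the labels' protocols. The deposited table holds 45141 probe sets as log2 values between 2.40 and 13.85, and the scale was read from the values. Partek 6.6 was used, per the submitters' processing notes; background correction, normalization and probe summarisation are not given in the sources used here, so signal over background was not assessed. Scaling that makes arrays alike can remove a shift that nearly all genes share. Whether the tumours came from separate animals is not stated in the labels, so p-values measure only the spread between these samples.

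Probe sets with 1 symbol were kept, 1 per gene by highest mean, and genes below the 30th percentile of probe set means (3.76) were left out. Comparisons used limma 3.58.1 in R 4.3.3 (eBayes with an intensity trend, two-sided, Benjamini-Hochberg over 13218 genes). Class genes were compared in 1 model of 24 tumours. The labels TUMOR and UNKNOWN were compared in a model of label and class gene, also over 24. Correlations used 100000 permutations, or all orders of 6 tumours, in Python 3.11.15 with numpy 2.4.6. Both were tested on simulated data. The 80 ERK pathway genes (68 measured, 62 tested) and 10 marker lists, and the 10 members, were chosen with earlier results of these data known. The rule named, in each of 3 comparisons, the 2 pathway genes of smallest p per direction where none passed, the 3 genes most like each member, and the 5 highest and 5 lowest correlations. The text singles out other pathway genes and values after they were seen. Alternatives changed the filter, probe set, scaling, trend, array weights, covariates, title prefix and tumours.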

Additional observations from a re-analysis of the deposited data

Results flagged for a closer look

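A tumour was singled out where its gap to the nearest other tumour of its group was large for the group's range (Dixon's test at 95%). Over 60 combinations of a gene and a class gene or label with 4 to 10 tumours, 5 were singled out, and chance singles out about 1 in 20. Spry1 in RAB3A replicate 5 was 5.66, and the next RAB3A tumour 8.69. In ZNF668 replicate 9, Dusp4 was 5.16 against 6.80 for the next ZNF668 tumour, Dusp6 was 9.37 against 10.88, and Spred1 was 9.37 against 10.24. Among the tumours labelled UNKNOWN, Dusp4 in ZNF668 replicate 9 was again apart, at 5.16 against 7.08 for the next.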

How the results depend on the processing

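In the 7 comparisons and every alternative run, 0 members passed by limma. Over all genes the number called moved with the setting, and the cause was not tested. For RAB3A minus ZNF668 (10) it was 21 in elw tumours alone, 0 in mmr tumours alone, 6 with no filter, 21 with array weights, and 0 with neuron and oligodendrocyte covariates, with only the 2 class genes and in ependymomas alone. For BC74C minus ZNF668 (40) it was 0 in mmr tumours alone and in ependymomas alone, 23 with the filter at the 50th percentile, 130 with array weights and 75 without RAB3A replicate 5 and ZNF668 replicate 9. For RAB3A minus BC74C (0) it was 1 with no filter, and 2 with a block for the title prefix, the 50th percentile filter, the mean of probe sets, no trend, centred arrays or the covariates. For UNKNOWN minus ependymoma (0) it was 398 with array weights, 22 with no class covariate and 2 without those 2 tumours. Leaving out single tumours gave 0 to 40, 25 to 63, 0 to 4 and 0 to 11 in these 4, 0 to 2 for the interaction, and 0 for HGG and for TUMOR. The pairs of members past the threshold (33) were 21 within the mmr tumours and 31 to 35 without single tumours. Relations with marker lists (21) were 2 within elw, 0 within mmr, 3 without the 2 tumours and 14 to 25 without single tumours. Those of Dusp6 with the pathway (29) were 18, 2 and, on residuals, 19, and 23 to 30 without single tumours. Signs turned, among others, for Spry4 in BC74C minus ZNF668 (0.33 in mmr tumours alone, 0.072 on its probe set 4), Dusp4 in HGG minus ependymoma (-0.15 in elw tumours alone) and Spred1 in UNKNOWN minus ependymoma (0.074 on its probe set 3). On that probe set Spred1 also turned in RAB3A minus ZNF668 (0.22), RAB3A minus BC74C (0.04) and BC74C minus ZNF668 (0.19). Correlations turned sign for Etv1 with Etv5 (-0.27 within elw, -0.41 without the 2 farthest tumours), with Ier3 (-0.079 without those 2), with Dusp6 (-0.020 and -0.078) and with Spred1 (-0.10 and -0.30). No paired analysis was possible because replicate numbers follow the order of deposit and pair no tumours. The mmr tumours alone could not be fitted for the 4 label comparisons and were not run. The number of arrays limits the precision, and with 4 tumours labelled HGG and 4 UNKNOWN a missed threshold does not show that levels were alike.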
